A study of Mus musculus with 13 samples.

Results

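DNA methylation of the autosomes was compared between female mouse induced pluripotent stem cells (iPSCs) labelled XaXa, which carry a pair of active X chromosomes, and male iPSCs, which carry a single X and a Y. The comparison rests on 2 XaXa libraries (7 and 8) and 3 male iPSC libraries (1, 2 and 4), taken by their source labels from a series of 13. Methylation was read by reduced representation bisulfite sequencing (RRBS), which samples the CpG-rich fragments that a restriction enzyme releases. All iPSCs were cleared of feeder cells before DNA was isolated, and no treatment, strain, allele, passage or method of reprogramming is given for them in the sources used here. Libraries of 4 female iPSCs labelled XO and of 2 male embryonic fibroblasts (MEF 4 and 5), the cell type from which iPSCs are commonly made, are used below only as background values. Whether the libraries of a group stem from separate cultures is not stated in the labels. The p-values therefore measure only how these libraries vary, and part of that variation may be technical.

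Methylation of cytosine in CpG is copied to the new strand at each cell division by DNMT1 and is set anew by DNMT3A and DNMT3B. Most CpGs of mammalian somatic cells are methylated, and CpG-dense promoters mostly are not. At imprinted regions the copy from a single parent keeps its methylation, which gives an intermediate level in somatic cells. Female mouse pluripotent cells with both X chromosomes active are known for less DNA methylation than male ones.

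The unit of measurement was a tile of 1 kb, and its level was the percent of reads over its CpGs that were methylated. Of 539151 autosomal tiles with any CpG read in the series, 123423 had at least 3 CpGs and 10 reads in each of the 5 libraries. The XaXa libraries held 20259444 (7) and 143148634 (8) CpG reads, and the male iPSC libraries held 8042155 to 60276866, so XaXa 8 is the deepest by far. Relative to the autosomes and to the male iPSC libraries, median depth on X was 1.42 in XaXa 7 and 1.51 in XaXa 8, where 2 would be the value for a pair of X in each cell were depth proportional to copies, and Y reads were 0.0485% and 0.0464% of autosomal reads in them, against 0.0793% to 0.0906% in male iPSCs. Median depth on X in libraries labelled XO was 1.33 (XO 3), 1.21 (XO 5), 1.16 (XO 6) and 1.33 (XO 9) on the same scale, where a single X would give 1 under the same assumption. MEF 5, labelled male, had 1.57 for X depth and 0.0219% for Y reads, which goes against its label. The promoter of Pou5f1, the gene of the pluripotency factor OCT4, was low in all 5 libraries, with 0 of 17 and 2 of 258 CpG reads methylated in XaXa 7 and 8 and with 0 of 16, 3 of 30 and 0 of 59 in male iPSC 1, 2 and 4, beside 4 of 6 and 11 of 21 in MEF 4 and 5. It held 18 of 30 methylated reads in XO 3 and 14 of 81 in XO 5, 2 libraries that stand apart in several results below.

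To show the sites behind the results, 7 promoters are printed from RefSeq (GRCm38.p6), each running from 250 bases before to 50 bases after the start of the gene. Their mm9 places were found by matching the spacing and the neighbouring bases of their CpGs to the deposited positions. CpGs in capitals are those matched. Mcts2, Plagl1 and Meg3 are imprinted genes. Asz1 and Slc25a31 are genes of the germ line. Nkx2-1 and Olfml2b lie in tiles that were higher in XaXa.
Mcts2, chr2:152512634-152512933, plus strand: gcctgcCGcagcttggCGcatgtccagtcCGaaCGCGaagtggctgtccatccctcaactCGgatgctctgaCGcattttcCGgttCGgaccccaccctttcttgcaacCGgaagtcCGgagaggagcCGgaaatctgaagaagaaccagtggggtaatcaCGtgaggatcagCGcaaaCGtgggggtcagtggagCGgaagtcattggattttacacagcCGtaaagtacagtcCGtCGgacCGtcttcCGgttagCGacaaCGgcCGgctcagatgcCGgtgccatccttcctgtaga
Plagl1, chr10:12810388-12810687, plus strand: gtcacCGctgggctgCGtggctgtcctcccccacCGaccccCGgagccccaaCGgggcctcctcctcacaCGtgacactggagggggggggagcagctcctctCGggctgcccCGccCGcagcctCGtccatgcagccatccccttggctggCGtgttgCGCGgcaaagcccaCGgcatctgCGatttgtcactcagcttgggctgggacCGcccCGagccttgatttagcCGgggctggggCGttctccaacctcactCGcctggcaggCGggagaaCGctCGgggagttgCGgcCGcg
Meg3, chr12:110778956-110779255, plus strand: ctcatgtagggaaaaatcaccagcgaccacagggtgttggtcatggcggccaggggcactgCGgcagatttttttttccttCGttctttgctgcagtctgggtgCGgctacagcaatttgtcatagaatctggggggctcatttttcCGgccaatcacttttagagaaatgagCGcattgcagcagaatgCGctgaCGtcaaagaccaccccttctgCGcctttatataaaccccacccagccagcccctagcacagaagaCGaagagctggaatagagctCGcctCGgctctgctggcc
Asz1, chr6:18059012-18059311, minus strand: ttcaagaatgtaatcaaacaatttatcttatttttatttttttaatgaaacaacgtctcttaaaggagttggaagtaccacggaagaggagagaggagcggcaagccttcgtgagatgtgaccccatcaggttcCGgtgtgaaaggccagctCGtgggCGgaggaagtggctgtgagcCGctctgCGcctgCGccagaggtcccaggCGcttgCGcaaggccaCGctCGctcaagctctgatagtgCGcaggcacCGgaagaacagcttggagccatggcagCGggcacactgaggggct
Slc25a31, chr3:40512543-40512842, plus strand: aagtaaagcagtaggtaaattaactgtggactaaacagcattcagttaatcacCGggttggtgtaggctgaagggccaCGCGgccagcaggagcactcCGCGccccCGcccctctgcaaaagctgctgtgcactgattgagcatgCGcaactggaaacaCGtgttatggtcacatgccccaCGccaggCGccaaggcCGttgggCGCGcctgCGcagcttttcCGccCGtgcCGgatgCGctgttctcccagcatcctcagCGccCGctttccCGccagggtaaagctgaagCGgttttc
Nkx2-1, chr12:57637846-57638145, minus strand: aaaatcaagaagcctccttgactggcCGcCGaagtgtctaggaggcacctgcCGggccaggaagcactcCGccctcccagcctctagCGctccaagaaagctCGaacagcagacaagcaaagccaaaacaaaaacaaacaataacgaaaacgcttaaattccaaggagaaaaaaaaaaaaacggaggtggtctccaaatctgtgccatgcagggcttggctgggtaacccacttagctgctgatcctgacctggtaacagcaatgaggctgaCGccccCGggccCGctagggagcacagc
Olfml2b, chr1:172574413-172574712, plus strand: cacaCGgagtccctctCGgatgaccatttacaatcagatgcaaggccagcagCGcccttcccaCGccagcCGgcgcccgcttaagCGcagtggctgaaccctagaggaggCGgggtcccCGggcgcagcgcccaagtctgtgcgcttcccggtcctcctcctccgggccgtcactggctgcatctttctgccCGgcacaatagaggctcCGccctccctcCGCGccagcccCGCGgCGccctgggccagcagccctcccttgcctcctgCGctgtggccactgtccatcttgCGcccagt

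XaXa iPSCs had less methylation than male iPSCs over most of the measured autosomes, and tiles that were high in male iPSCs stood mostly at intermediate levels in XaXa. The mean tile level was 37.7% in XaXa 7 and 30.2% in XaXa 8, against 52.6%, 56.1% and 56.0% in male iPSC 1, 2 and 4. The XaXa mean was 33.9% ± 5.26 (SD, n = 2), against a male iPSC mean of 54.9% ± 2.04 (SD, n = 3), a difference of -20.96 points and a ratio of 0.618. Both XaXa libraries lay below all male libraries (exact two-sided permutation p = 0.1, the lowest value possible with 10 splits). With single libraries left out, it was -24.7 points without XaXa 7 and -17.2 points without XaXa 8.

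The class of highly methylated tiles was almost empty in XaXa. Tiles above 80% made up 0.991% of tiles in XaXa 7 and 0.0397% in XaXa 8, against 22.8%, 32.3% and 32.1% in male iPSC 1, 2 and 4. Tiles between 20% and 80% made up 70.3% ± 3.41 (SD, n = 2) in XaXa, against 47.8% ± 4.72 (SD, n = 3) in male iPSCs. Tiles under 20% differed less, at 29.2% ± 4.08 (SD, n = 2) in XaXa, against 23.1% ± 0.742 (SD, n = 3) in male iPSCs. In bulk DNA, a level between 0 and 100% can come from a part of the cells or from a part of the alleles, and these cannot be told apart here.

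**Figure D1:**
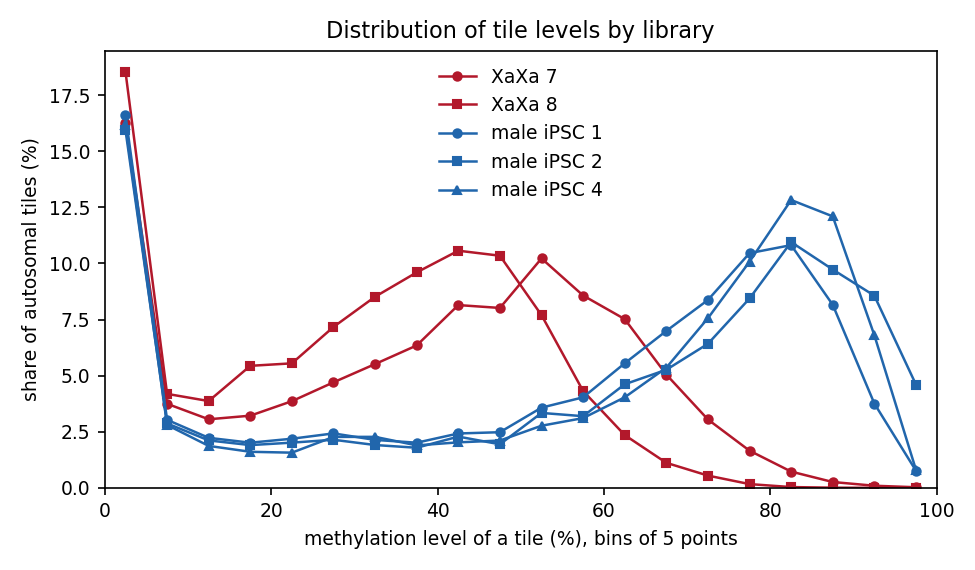
Share of the 123423 autosomal tiles (y axis, %) in bins of 5 points of methylation level (x axis, %), with a line for each XaXa (red) and male iPSC (blue) library. The upper mode of the male iPSC libraries lies between 80% and 85%, and that of XaXa 7 between 50% and 55%, while all 5 libraries share a mode under 5%.

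XaXa 8 was lower than XaXa 7 in 78.9% of tiles, with a mean difference of -7.44 points, so the 2 XaXa libraries differed from each other more than the male libraries did. The difference from male iPSCs was negative in 88.5% of tiles. Its median over tiles was -23.99 points, with a range from -42.4 points at the 5th percentile to 0.908 points at the 95th. The 19 autosomes were alike, with XaXa at 0.612 (chromosome 9) to 0.622 times the male iPSC level. Depth relative to male iPSCs ranged over the autosomes from 0.916 to 1.05 in XaXa 7 and from 0.946 to 1.01 in XaXa 8, both lowest on chromosome 8, where male iPSC 4 had 1.16 times its genome-wide depth.

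In a quasi-binomial model of the reads in each tile, with moderated dispersion and Benjamini-Hochberg adjustment over all tiles, a tile was called when its adjusted p was under 0.05 and its group means differed by 10 points or more. By this rule 84634 tiles, 68.6% of those tested, were lower in XaXa, and 193, or 0.156%, were higher. The groups did not overlap in 84348 tiles that were lower (68.3%) and in 2579 that were higher (2.09%), whether called or not. Among the lower tiles the median difference was -29.3 points, and 9597 differed by 40 points or more. limma on log2 ratios called 66078 tiles lower, of which 65767 were shared with the model. The calls depend on XaXa 8. Without it 0 tiles were called in either direction, with 49838 lower and 761 higher at an unadjusted p under 0.05, while without any other library 68905 to 84632 were called lower.

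The ratio of mean levels, XaXa to male iPSC, was similar in classes of tiles that differ in fibroblast level. Tiles above 80% in MEFs were at 48.9% in XaXa 7 and 40.1% in XaXa 8, against 68.1%, 71.8% and 73.1% in male iPSC 1, 2 and 4. This is a ratio of 0.627 over 37976 tiles, of which 88.2% were called lower. Tiles at 20% to 80% in MEFs had a ratio of 0.606 over 34682 tiles, with 35.6% ± 5.77 (SD, n = 2) in XaXa, against 58.7% ± 2.41 (SD, n = 3) in male iPSCs. Tiles under 20% in MEFs were low in both groups, at 3.65% ± 0.877 (SD, n = 2) in XaXa, against 5.30% ± 0.380 (SD, n = 3) in male iPSCs. Their ratio was 0.69, and 5.67% of these 20018 tiles were called lower. The median difference over these tiles was -0.0768 points, with quartiles of -0.984 and 0.351 points. The ratio of means thus reflects a smaller part of them.

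The difference in points was smaller in tiles with more CpGs, while the ratio of class means changed little. Tiles with 3 to 9 CpGs read in any library were at 41.7% ± 6.12 (SD, n = 2) in XaXa, against 67.8% ± 2.54 (SD, n = 3) in male iPSCs, a difference of -26.1 points. Tiles with 40 or more CpGs, the range of CpG islands, were at 4.75% ± 1.22 (SD, n = 2) in XaXa, against 7.39% ± 0.373 (SD, n = 3) in male iPSCs, a difference of -2.64 points. The ratios were 0.615 and 0.643. In tiles with 40 or more CpGs the median difference was only -0.119 points, and 8.45% were called lower. Their ratio of means thus reflects a smaller part of these tiles. Where dense tiles were methylated in fibroblasts they were lower in XaXa too. Tiles with 40 or more CpGs and above 80% in MEFs were at 32.5% and 23.5% in XaXa 7 and 8, against 45.7%, 44.0% and 50.1% in male iPSC 1, 2 and 4, and 699 of these 1158 (60.4%) were called lower and 0 higher, beside 68.6% of all tiles and 88.2% of all those above 80% in MEFs. All 5 libraries lay below the fibroblast level in this class, which averaged 87.0% in MEF 4. The class was picked for high MEF values, which favours a lower level in any other library.

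**Figure D2:**
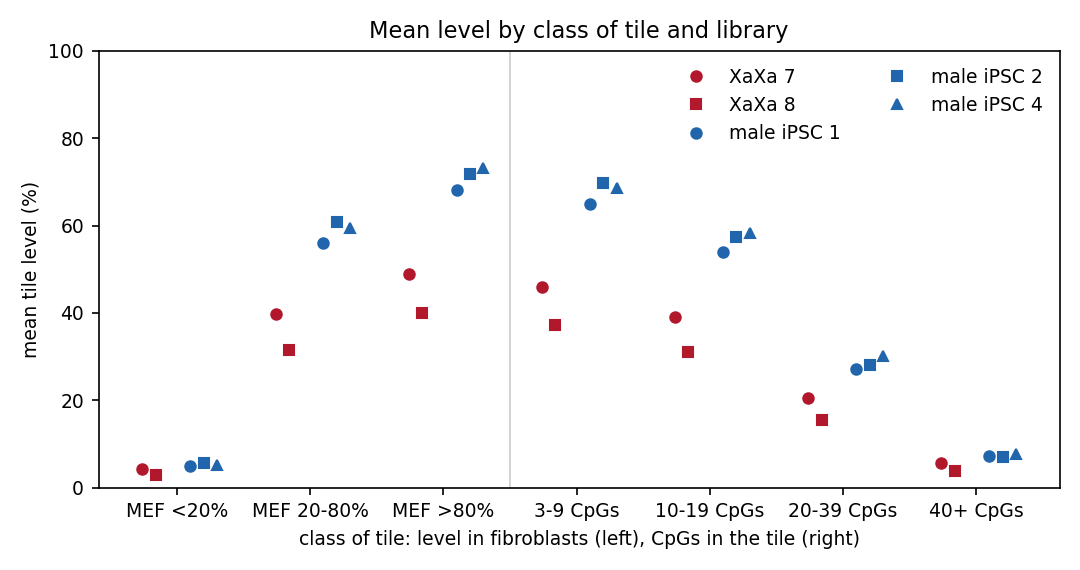
Mean tile level (y axis, %) in each XaXa (red) and male iPSC (blue) library for tiles grouped by their mean level in MEFs (left of the line) and by the number of CpGs read in the tile (right of it). Both XaXa libraries lie below all male iPSC libraries in every class drawn, with mean differences of -26.5 points in tiles above 80% in MEFs and -1.64 points in tiles under 20%.

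Promoters followed the level of their CpGs. Of the RefSeq promoters, 6333 could be placed and read in all 5 libraries, and most were unmethylated in both groups. The 4540 promoters under 20% in MEFs averaged 0.971% ± 0.179 (SD, n = 2) in XaXa, against 1.21% ± 0.123 (SD, n = 3) in male iPSCs. Their median difference was 0.0406 points. The 97 promoters above 80% in MEFs averaged 39.4% and 29.7% in XaXa 7 and 8, against 55.4%, 59.3% and 60.6% in male iPSC 1, 2 and 4. Of the 95 of these with a measured tile, 79 (83.2%) were called lower and 0 higher, beside 6.45% of all promoter tiles, 68.6% of all tiles and 88.2% of tiles above 80% in MEFs, with both XaXa libraries below all male ones in their mean.

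Germline genes have CpG-rich promoters that are methylated and silent in somatic cells, and they are known to depend on this methylation for silencing. Of 17 such genes listed, 13 were placed and 8 could be read in all 5 libraries. All 8 had a lower mean in XaXa, 6 of them without overlap of the groups, and 7 of their 8 tiles were called lower and 0 higher. Of all tiles 68.6% were called lower and 68.3% were lower without overlap, and 83.2% of promoters above 80% in MEFs were called lower, so these counts show nothing particular to germline genes. Over the 8 promoters the median difference was -21.6 points, beside 0.00207 points over all promoters, most of which are unmethylated. Their mean level was 23.7% in XaXa 7 and 14.4% in XaXa 8, against 43.3%, 36.4% and 43.1% in male iPSC 1, 2 and 4, and 85.5% and 91.6% in MEF 4 and 5, over the genes read there.

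Asz1, which encodes a protein of the piRNA pathway that silences transposons in germ cells, differed most in points among these promoters. Over the 13 capital CpGs of its sequence above, 27.3% and 17.6% of reads were methylated in XaXa 7 and 8, against 60.8%, 51.2% and 72.6% in male iPSC 1, 2 and 4. Both XaXa libraries lay below all male ones, a difference of -39.1 points (adjusted p = 0.000218 for its tile). Hormad1, a protein of the meiotic chromosome axis, was at 6.25% and 4.90% in XaXa 7 and 8, against 38.1%, 44.4% and 31.3% in male iPSCs, although XaXa 7 and male iPSC 2 gave only 16 and 18 CpG reads. Its tile differed by -42.9 points (adjusted p = 0.000147). The Hormad1 promoter was also below all male libraries in XO 3, 5 and 6, at 18.2%, 5.88% and 18.1%. XO 9 had too few reads there. The Asz1 promoter, in contrast, was at 48.1% to 60.7% in the 4 XO libraries. Slc25a31, the testis form of the mitochondrial ADP/ATP carrier, was at 20% and 11.7% in XaXa 7 and 8, against 35.1%, 36.9% and 42.1% in male iPSCs (adjusted p = 0.000164 for its tile). Mael, another gene of transposon silencing, was at 9.04% and 6.47%, against 23.9%, 18.4% and 21.2%, from 98 reads or more in each library. The groups did not overlap at these 4 promoters. Tex101, a surface protein of male germ cells, kept the highest level of the list in XaXa, with 61.1% and 46.9% in XaXa 7 and 8, against 80.5%, 68.3% and 81.1% in male iPSCs. Rpl10l, a ribosomal protein gene of the testis, was at 14.7% and 5.45% in XaXa, against 25.4%, 18.2% and 39.4% in male iPSCs, and did not overlap either. The lowest of these male values, in male iPSC 2, rests on only 11 CpG reads. Ddx4, a germ cell RNA helicase, and Sycp2, a part of the synaptonemal complex of meiosis, overlapped between the groups. The Sycp2 promoter ranged from 27.8% to 80% among the male libraries on 15 to 37 reads, and its tile was the one not called (adjusted p = 0.0707).

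The largest losses by the naming rule, which asks for at least 5 CpGs and 50 reads in each library, reached -59.6 to -75.5 points. Over these 12 tiles the level was 3.03% to 32.3% in XaXa 7 and 3.99% to 33.6% in XaXa 8, against 65.6% to 91.7% in male iPSC 1, 75% to 94.9% in male iPSC 2 and 44.7% to 95.05% in male iPSC 4. None of the 12 held a placed promoter, and all were called lower in every alternative in which they could be tested except without XaXa 8. The highest adjusted p among them was 0.000404. In the libraries labelled XO, 9 (XO 3), 12 (XO 5), 6 (XO 6) and 11 (XO 9) of these tiles lay below the lowest male iPSC library, beside 13.6%, 18.2%, 15.2% and 40.9% of all tiles. The tiles were picked for high male values, which favours any other library.

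The largest of these losses lay on chromosome 7 at 70948008 to 70948994. Its level was 3.03% and 6.25% in XaXa 7 and 8, against 91.7%, 92.4% and 56.2% in male iPSC 1, 2 and 4 (difference -75.5 points, adjusted p = 0.000404). Male iPSC 4 was lower there than the other male libraries and still far above XaXa. A tile on chromosome 6 at 47974605 to 47974993, which lies 22994 bases from the start of the zinc finger gene Zfp777, was at 4.29% and 3.99% in XaXa 7 and 8, against 81.1%, 86.1% and 59.5% in male iPSCs (difference -71.4 points, adjusted p = 0.000148). On chromosome 7 at 6084016 to 6084516, 23301 bases from the start of the zinc finger gene Zfp787, levels were 6.37% and 6.47% in XaXa, against 83.9%, 79.8% and 44.7% in male iPSCs (difference -63.0 points, adjusted p = 0.000359). In these 3 tiles XaXa was nearly unmethylated, and male iPSC 4 was the lowest male library each time.

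The tiles near Zfp777 and Zfp787 were also low in libraries labelled XO, at 4.82% and 7.78% in XO 3, 5.43% and 7.07% in XO 5, and 14.7% and 5% in XO 9, and at 42.4% and 48.6% in XO 6. Other tiles differed from these in XO. A tile on chromosome 17 at 6582002 to 6582340 was at 7.79% and 10.5% in XaXa 7 and 8, against 65.6%, 90% and 79.9% in male iPSCs, and was at 55.6% to 69.7% in the XO libraries. A tile on chromosome 8 at 120372339 to 120372894 was at 22.4% and 14.2% in XaXa, against 85.2%, 86.0% and 87.5% in male iPSCs, the narrowest spread of male values among the 12. Tiles 6504 bases from the start of Aen, a nuclease gene induced by p53, and 12342 bases from that of Rnf7, a subunit of cullin ubiquitin ligases, differed by -64.6 and -64.2 points. Over all 84634 lower tiles, XO libraries lay below the lowest male library in 17.2% (XO 3), 24.3% (XO 5), 19.2% (XO 6) and 48.9% (XO 9) of the tiles they measured, where XO 9 has a median of 18 reads per tile. These shares stand beside the 13.6%, 18.2%, 15.2% and 40.9% of all tiles given above, and the lower tiles were called for high male values as well.

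Imprinted regions stood lower in XaXa than in male iPSCs. Of 22 imprinted windows listed, 19 held a measured tile. The 3 without one were H19, Rasgrf1 and the region between Dlk1 and Meg3, which are the regions of the list known to take their methylation from the father in the germ line. The 19 windows held 32 tiles, and all 32 differences were negative. Of these tiles 24 were called lower and 0 higher, or 75% lower beside 68.6% of all tiles, and 27 (84.4%) did not overlap between the groups, beside 68.3% of all tiles. limma called 27 lower (84.4%), beside 53.5% of all tiles, and 0 higher. Among tiles at 25% to 75% in both MEF libraries, 14 of 20 imprinted ones (70%) were called lower, beside 73.4% of the 16287 others. Both XaXa libraries were under 25% in 21 of the 32 tiles, and all 3 male iPSC libraries were under 25% in 1. By single library, 28.0% and 39.1% of the 16287 others were under 25% in XaXa 7 and 8, and 17.8% to 20.5% in male iPSCs.

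In the 20 imprinted tiles at 25% to 75% in both MEF libraries, the mean level was 19.8% in XaXa 7 and 16.2% in XaXa 8, against 64.0%, 56.8% and 48.2% in male iPSC 1, 2 and 4. The group means were 17.97% ± 2.55 (SD, n = 2) in XaXa, against 56.3% ± 7.93 (SD, n = 3) in male iPSCs, a difference of -38.4 points. The 16287 other tiles in the same range of MEF level were at 37.2% and 29.4% in XaXa 7 and 8, against 53.0%, 57.9% and 55.7% in male iPSCs, a difference of -22.2 points. Taken as imprinted minus other, the difference between the classes was -17.4 and -13.2 points in XaXa 7 and 8, against 11.04, -1.12 and -7.50 points in male iPSC 1, 2 and 4. It was -12.8 and -9.49 points in MEF 4 and 5, so imprinted tiles stood lower in the fibroblasts too, by an amount close to that in XaXa 8. In the libraries labelled XO it was -33.1 (XO 3), -35.7 (XO 5), -9.46 (XO 6) and -12.2 points (XO 9). With the class set by MEF 4 alone, as the MEF 5 label is in doubt, the difference between XaXa and male iPSCs in this measure was -14.4 points, and with both MEF libraries it was -16.1 points. The groups did not overlap in it, with -15.3 ± 2.99 points (SD, n = 2) in XaXa and 0.808 ± 9.42 points (SD, n = 3) in male iPSCs.

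The gap kept its sign under narrower choices of tiles, none of which matches the classes in CpG number. Over tiles at 40% to 60% in both MEF libraries it was -16.9 points, with 7 imprinted and 2975 other tiles. Against the 10851 other intermediate tiles with a CpG count within the range of the imprinted ones it was -17.9 points, although the median tile held 10 CpGs among the others and 26 among the imprinted. With 16 or more CpGs in both classes, with medians of 28 in 18 imprinted and 21 in 2225 other tiles, it was -27.3 points. The other tiles of that choice were at 24.9% and 18.2% in XaXa 7 and 8, against 32.4%, 35.3% and 35.8% in male iPSCs, and so lay lower in both groups than other tiles at large. Over 9 imprinted tiles that were also at 25% to 75% in each male iPSC library, levels were 14.7% and 16.4% in XaXa 7 and 8, against 52.9%, 53.9% and 51.8% in male iPSC 1, 2 and 4. Over 3462 other tiles chosen in the same way and with CpG counts in the same range (median 10, against 31 in the 9) they were 34.5% and 25.9% in XaXa, against 49.99%, 54.5% and 53.4% in male iPSCs, and the difference between the classes was -14.9 points. Both sets were picked by the male values that are compared here. The choice leaves out tiles where a male library is low or high, which draws the male levels together. With single libraries left out, the first difference of -16.1 points ranged between -11.02 (without male iPSC 1) and -20.3 points (without male iPSC 4).

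**Figure D3:**
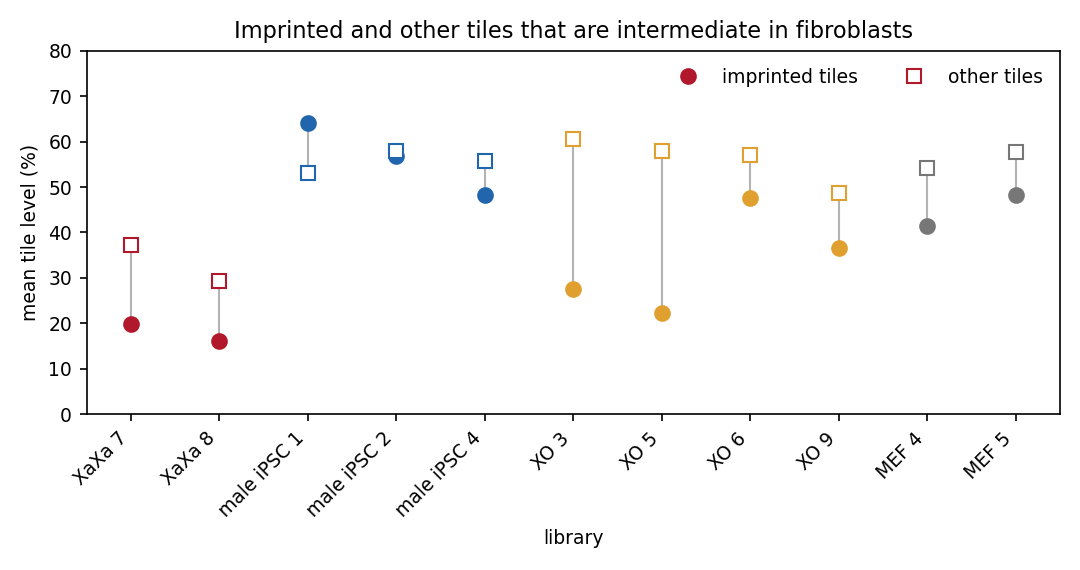
Mean level (y axis, %) of the 20 imprinted tiles (filled circles) and of the 16287 other tiles (open squares) that are at 25% to 75% in both MEF libraries, for each library (x axis) of XaXa (red), male iPSC (blue), XO (yellow) and MEF (grey). In XaXa both classes are low and the imprinted tiles, at 19.8% and 16.2%, are lowest, while in male iPSCs they stand at 48.2% to 64.0%.

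The libraries labelled XO differed among themselves. Their other intermediate tiles stood at 60.7%, 58.0%, 57.0% and 48.7% in XO 3, 5, 6 and 9, while their imprinted tiles stood at 27.5%, 22.4%, 47.6% and 36.5%. By these means XO 3 and XO 5 were near the male level in other tiles and nearer to XaXa than to male iPSCs in imprinted ones. Single imprinted tiles spread widely, from 0% to 92.1% in XO 3 and from 1.56% to 81.3% in XO 5. The highest were at 43.75% in XaXa 7 and 37.6% in XaXa 8. Of the 20 imprinted tiles, 14 in XaXa 7, 16 in XaXa 8, 13 in XO 3 and 15 in XO 5 were under 25%, and 0, 1 and 4 in male iPSC 1, 2 and 4. Of the other intermediate tiles, 28.0%, 39.1%, 13.7% and 14.9% were under 25% in XaXa 7, XaXa 8, XO 3 and XO 5. In male iPSC 1, 2 and 4 these shares were 20.5%, 17.8% and 18.9%.

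Among the single windows, 4 of the 5 with the largest differences were at 12.9% or less in both XaXa libraries. The Grb10 window, on chromosome 11 at 11925589 to 11926884, lies in the gene of an adaptor that restrains growth factor signals. Its 2 tiles averaged 11.2% and 7.48% in XaXa 7 and 8, against 74.9%, 55.0% and 68.2% in male iPSC 1, 2 and 4, a difference of -56.7 points (adjusted p of 0.000147 and 0.000148). Inpp5f, a phosphoinositide phosphatase gene with an imprinted inner promoter, was at 6.90% and 12.9% in XaXa, against 81.0%, 49.1% and 67.0% in male iPSCs (adjusted p = 0.000181). Nap1l5, an imprinted gene without introns, was at 6.57% and 4.35% in XaXa, against 61.4%, 44.2% and 57.8% in male iPSCs (adjusted p = 0.000147). Peg10, derived from a retrotransposon and needed in the placenta, was at 10.1% and 5.93% in XaXa, against 76.7%, 73.5% and 35.5% in male iPSCs (adjusted p = 0.000618). Both XaXa libraries lay below all male iPSC libraries in these 4 windows.

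Mcts2, a retrogene in an intron of H13, had the lowest level of all windows in XaXa. Its tile on chromosome 2 at 152512522 to 152512987 was at 1.76% and 2.07% in XaXa 7 and 8, against 47.8%, 44.0% and 58.4% in male iPSC 1, 2 and 4 (difference -48.2 points, adjusted p = 0.000147). Over the 25 capital CpGs of the promoter printed above, 2.38% and 1.84% of reads were methylated in XaXa, against 51.4%, 32.5% and 54.5% in male iPSCs and 58.4% and 59.5% in MEF 4 and 5. The XO libraries were at 0% to 4.202% there. Plagl1, a zinc finger regulator of an imprinted gene network, was at 22.2% and 5.94% over its 25 capital CpGs in XaXa 7 and 8, against 45.5%, 68.0% and 49.7% in male iPSCs. The groups did not overlap in either promoter, although Plagl1 had only 27 CpG reads in XaXa 7, 33 in male iPSC 1 and 25 in male iPSC 2. In MEF 4 and 5 the Plagl1 promoter was at 0% and 42.3%, from 29 and 52 CpG reads.

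Some windows held several tiles. The 3 tiles of Zrsr1, a splicing factor retrogene in an intron of Commd1, differed by -43.9, -32.7 and -37.1 points, and the window was at 12.7% and 8.80% in XaXa, against 50.6%, 57.6% and 37.9% in male iPSCs. The window of Nespas and Gnasxl, alternative transcripts of the Gnas cluster, had 6 tiles that differed by -20.5 to -39.9 points. Of these 4 were called lower, with adjusted p over the 6 between 0.000147 and 0.366. The window averaged 21.4% and 19.7% in XaXa, against 51.9%, 54.1% and 53.0% in male iPSCs. Airn, the noncoding RNA that silences Igf2r, had 2 tiles called lower and was at 15.2% and 15.05% in XaXa, against 60.3%, 61.1% and 42.6%. Cdh15, a cadherin gene whose imprint is known to vary between tissues, was at 36.7% and 19.96% in XaXa, against 81.7%, 69.98% and 90.5% in male iPSCs, which is above its level in MEF 4 (43.5%) and MEF 5 (38.5%).

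Some windows varied among the male iPSC libraries, and male iPSC 4 was often the low one. Snrpn, a gene of the domain that in human is tied to Prader-Willi syndrome, was at 8.55% and 9.37% in XaXa 7 and 8, against 56.1%, 50% and 12.9% in male iPSC 1, 2 and 4. The groups did not overlap, but its tile was not called (adjusted p = 0.0574). At Impact, an inhibitor of a translation control kinase, male iPSC 4 was at 24.5% beside 62.0% and 66.0% in male iPSC 1 and 2, and XaXa was at 12.1% and 3.61% (adjusted p = 0.000867). Kcnq1ot1, a noncoding RNA that silences its cluster, was at 7.69% and 6.61% in XaXa, against 57.1%, 14.6% and 25.8% in male iPSCs, where male iPSC 2 was lowest (adjusted p = 0.00156). At the Meg3 promoter printed above, 18.2% and 12.4% of reads were methylated in XaXa, against 60.4%, 78.6% and 8.38% in male iPSCs, and the groups overlapped. Neither Meg3 tile was called (adjusted p of 0.0528 and 0.185). Slc38a4, an amino acid transporter gene, overlapped too, with 29.7% and 22.9% in XaXa and 64.5%, 48.6% and 10.8% in male iPSCs. Its 2 tiles were at 21.3% and 0.239% in male iPSC 4.

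The third window with overlap was Gnas 1A, which was low in both groups at 5.19% and 5.40% in XaXa and 4.4%, 5.77% and 7.71% in male iPSCs. It was not called (adjusted p = 0.256). The smallest differences after it and Slc38a4 were at Peg13, a noncoding RNA, where XaXa kept 45.01% and 25.9%, against 60.8%, 58.2% and 63.5% in male iPSCs, and at Kcnq1ot1. In all, 16 of the 19 windows did not overlap between the groups, all in the lower direction, beside 68.3% of all tiles. A window can average several tiles, so these shares are not alike. By tile, 17 of the 20 imprinted ones intermediate in both MEF libraries were lower without overlap, beside 12149 of 16287 others. RefSeq promoters of imprinted genes that lie outside the imprinted mark were unmethylated in both groups. That of Grb10 was at 0% and 0.390% in XaXa 7 and 8, against 2.02%, 0% and 0.226% in male iPSC 1, 2 and 4.

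**Figure D4:**
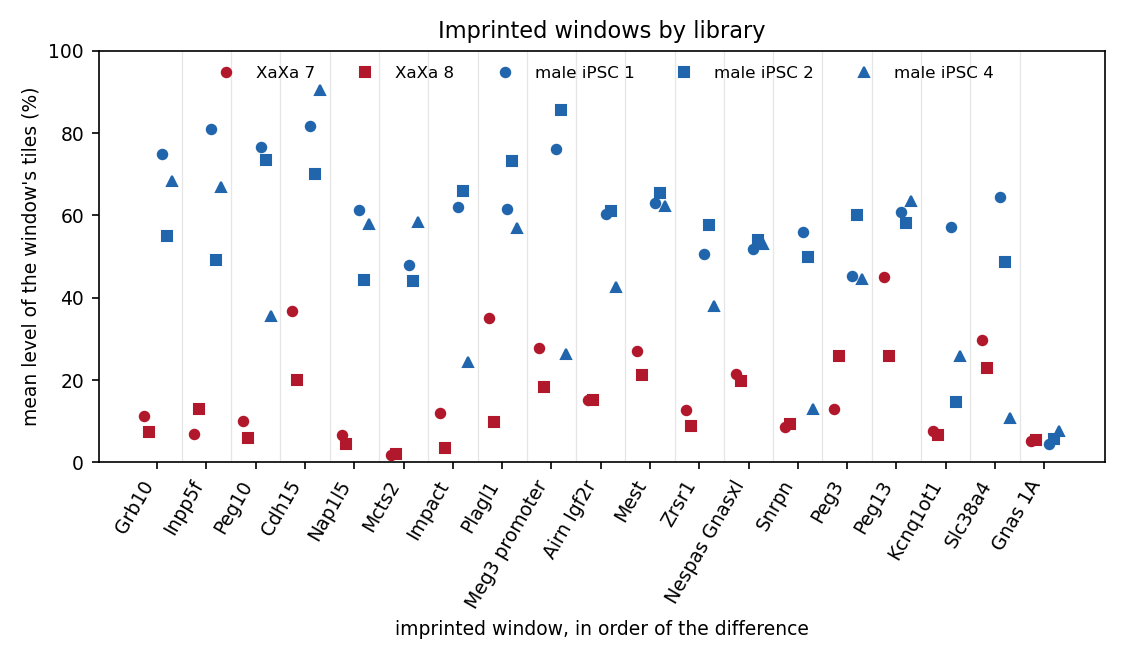
Mean level (y axis, %) of the tiles in each of 19 imprinted windows (x axis, in order of the XaXa minus male iPSC difference) for each XaXa (red) and male iPSC (blue) library. The difference runs from -56.7 points at Grb10 to -0.663 points at Gnas 1A, and male iPSC 4 lies close above XaXa at Snrpn (12.9%), within it at Meg3 and below it at Slc38a4 (10.8%).

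Gains in XaXa were rare and of low to middle level. The 193 tiles called higher averaged 34.5% in XaXa 7 and 26.5% in XaXa 8, against 11.6%, 13.5% and 11.8% in male iPSC 1, 2 and 4, which are values the call itself used. The median gain was 15.6 points and the largest 50.004 points, and the groups did not overlap in 176. With 84634 losses in the same adjustment, the error rate is not held for gains alone: with a one-sided p for the higher direction, adjusted over all tiles, 1 tile was left. That tile, on chromosome 14 at 67486278 to 67486885, was at 26.9% and 24.2% in XaXa 7 and 8, against 0.403%, 0% and 0.753% in male iPSCs, from 102 CpG reads or more in each library (two-sided adjusted p = 0.000147). limma called 139 higher, 119 of them shared. Without XaXa 7, 111 tiles were called higher.

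Of the 161 gain tiles measured in both MEF libraries, 67 were under 20% in MEFs (41.6%), 74 between 20% and 80% (45.96%) and 20 above 80% (12.4%), beside 21.6%, 37.4% and 40.98% of all tiles measured there. By the naming rule, the largest gain lay on chromosome 4 at 14772737 to 14772944, with 68.9% and 55.7% in XaXa 7 and 8, against 5.95%, 8.62% and 37.2% in male iPSCs (adjusted p = 0.00726). Its call was lost without XaXa 7 (adjusted p = 0.0604), without XaXa 8 (0.137) and with 4 groups in the fit (0.243). A tile on chromosome 19 at 53772256 to 53772896 was at 36.1% and 34.7% in XaXa, against 0.987%, 0% and 8.05% in male iPSCs, and at 68.6% and 72.0% in MEF 4 and 5 (adjusted p = 0.000200). On chromosome 2 at 71376467 to 71376970, 8092 bases from the start of Dlx2, a homeobox gene of the forebrain, levels were 42.8% and 31.5% in XaXa, against 17.8%, 10% and 18.02% in male iPSCs (adjusted p = 0.00314). In these 3 tiles both XaXa libraries lie above all male iPSC libraries by the naming rule, which asks for no overlap. Over the 12 named gains the male iPSC libraries ranged from 0% to 39.9%.

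Of the 193 tiles, 10 held a placed promoter. Nkx2-1, a homeobox regulator of lung, thyroid and forebrain, shares a tile pair with the noncoding Gm26973, and both of its tiles were called. Over the 9 capital CpGs of the Nkx2-1 sequence above, 29.5% and 18.4% of reads were methylated in XaXa 7 and 8, against 2.13%, 0% and 6.19% in male iPSC 1, 2 and 4. The tile at 57638042 on chromosome 12 was at 42.9% and 28.7% in XaXa, against 0%, 0% and 7.09% in male iPSCs (adjusted p = 0.00115). Mgmt, which repairs alkylated guanine, was at 39.4% and 22.9% in XaXa, against 0%, 0% and 4.66% in male iPSCs, from 22 CpG reads in the shallowest library (adjusted p = 0.00154). The shared promoter tile of Emc1 and Mrto4, genes of a membrane insertion complex and of ribosome assembly, was at 41.8% and 10.9% in XaXa, against 0.521%, 0% and 1.77% in male iPSCs (adjusted p = 0.0457), and the 2 XaXa libraries disagreed there most. Its difference of 25.6 points was 10.1 points without XaXa 7 and 10.2 points with an unweighted mean of CpG levels. Its call was lost without XaXa 8 (adjusted p = 0.0621), without male iPSC 1 (0.0718), 2 (0.0579) or 4 (0.258), at a minimum of 5 reads (0.0574) or 5 CpGs (0.0765), with 4 groups in the fit (0.137) and at an adjusted p under 0.01. At Hoxb1, a regulator of hindbrain pattern, levels were 22.4% and 10.8% in XaXa, against 2.74%, 2.33% and 3.86% in male iPSCs (adjusted p = 0.00841). Olfml2b, a secreted olfactomedin protein, was at 21.4% and 14.9%, against 7.62%, 5.62% and 6.10% (adjusted p = 0.00126).

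**Figure D5:**
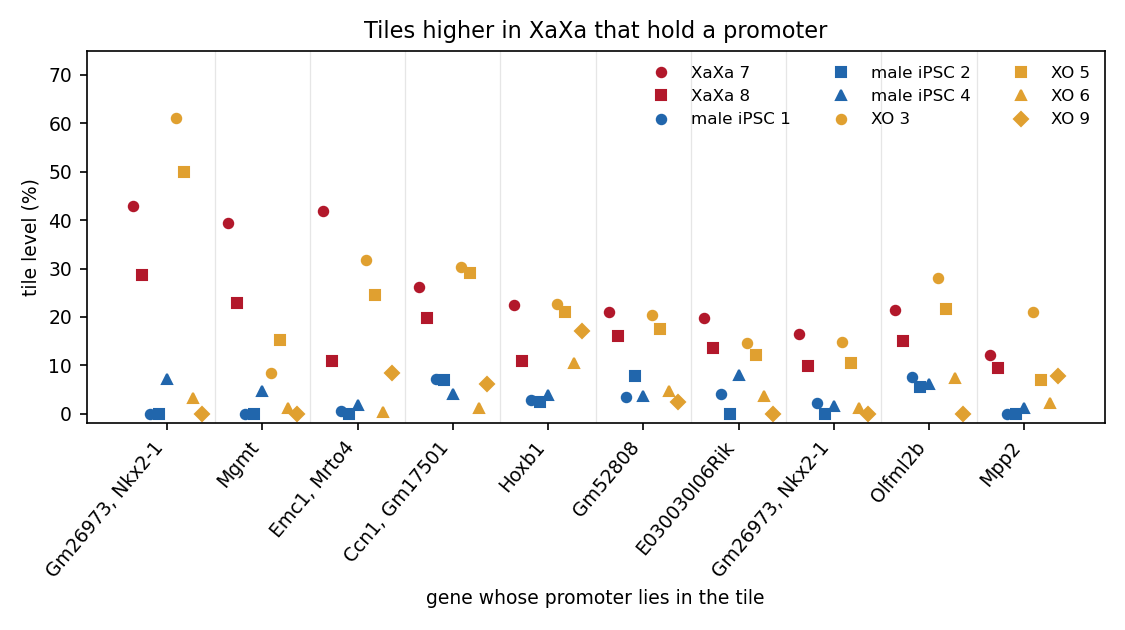
Tile level (y axis, %) in each XaXa (red), male iPSC (blue) and XO (yellow) library for the 10 tiles higher in XaXa that hold a placed promoter (x axis, by gene, in order of the difference). Male iPSC values lie between 0% and 8.04%, and in most tiles XO 3 and XO 5 lie with XaXa while XO 6 lies with the male values.

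XO 3 and XO 5 were high at the gains as well. XO 3 lay above the highest male iPSC library in 181 of the 190 gain tiles it measured (95.3%), and XO 5 in 184 of 191 (96.3%), beside 36.7% and 28.4% of all tiles. In XO 6 this held for 113 of 193 (58.5%) and in XO 9 for 81 of 155 (52.3%), beside 27.0% and 19.4% of all tiles. The tiles were called for low male values, which favours any other library, so only the order among the XO libraries is described here. Over the 193 tiles, mean levels were 41.2%, 38.2%, 19.2% and 19.8% in XO 3, 5, 6 and 9.

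The 4 Hox clusters, arrays of homeobox genes that set position along the body axis and are bound by Polycomb proteins in pluripotent cells, had a positive mean difference. Over their 179 tiles the mean level was 14.6% in XaXa 7 and 10.6% in XaXa 8, against 10.6%, 11.9% and 10.1% in male iPSC 1, 2 and 4, so the groups overlapped. The difference was positive in 133 of these tiles, beside 14073 of all 123423 tiles. Of the 179, 11 (6.15%) were called higher and 8 (4.47%) lower, beside 0.156% and 68.6% of all tiles. The Hox tiles were low in fibroblasts, at 15.5% and 17.2% in MEF 4 and 5. Among the 20018 tiles under 20% in MEFs, 0.335% were called higher and 5.67% lower, and 10916 had a negative difference. The Hox share called lower was thus near that of low tiles. limma called 5 of the Hox tiles higher and 2 lower. XO 3 and XO 5 stood at 27.8% and 20.7%. The protocadherin cluster, whose promoters are methylated by choice of isoform in neurons, was lower in XaXa. Its 116 tiles were at 26.2% and 20.6% in XaXa, against 36.7%, 40.3% and 45.4% in male iPSCs, and 66 were called lower and 0 higher, a smaller share than the 68.6% of all tiles.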

How the data were processed

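BSMAP was the aligner and mm9 the build, per the submitters' processing notes. The version of BSMAP and any read filter were not given in the sources used here. For each CpG the deposited tables hold the total read count, the methylated read count and their fraction, per the file headers. The deposited counts are not normalised, and the deposited fraction was not needed. Counts were summed in 1 kb tiles on the 19 autosomes. Reads over several CpGs enter once per CpG, and PCR copies cannot be recognised. Median reads per tile were 74 and 569 in XaXa 7 and 8, against 81, 34 and 212 in male iPSC 1, 2 and 4.

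Tiles were fitted over the 5 libraries with a quasi-binomial model holding a mean for each group. Its dispersion was moderated with squeezeVar of limma 3.58.1 and kept at 1 or above, and F tests were adjusted by Benjamini-Hochberg over the 123423 tiles. A call also needed unweighted group means 10 points apart. Deep libraries weigh more in the model than in the means. Library means were compared with exact permutation tests, and lists were described by counts and means without a test.

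Named losses and gains were the 12 largest called tiles per direction with at least 5 CpGs and 50 reads in each library, no overlap of the groups and mean depth per CpG up to 10 times the library median. Each imprinted window with a tile, the Hox and protocadherin windows and the germline promoters read in all 5 libraries were named too. Gain tiles with promoters, the tile left by a one-sided test and the Pou5f1 promoter were named after their values were seen. Window positions in mm9 were set by hand from common knowledge of these regions and can be off. RefSeq promoters (300 bases, GRCm38.p6) were placed through at least 3 CpGs, and 13671 promoters of 11839 genes were used, so the nearest placed promoter need not be the nearest gene. The members, lists and tests were chosen with earlier results of these data known. Alternatives covered read and CpG minimums, tile size, very deep tiles, limma, 4 groups in the fit, thresholds, classes and leaving out each library. Software was R 4.3.3 and Python 3.11.15 with pandas 2.3.3, numpy 2.4.6, scipy 1.17.1 and matplotlib 3.10.9.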

Additional observations from a re-analysis of the deposited data

How the results depend on the processing

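The mean tile difference, the imprinted difference, that of other intermediate tiles and the difference between these classes kept their direction under all alternatives run, with ranges over single libraries left out of -24.7 to -17.2, -42.4 to -34.5, -26.1 to -18.3 and -20.3 to -11.0 points. The difference between the classes moved to -27.3 points with 16 or more CpGs in both, an alternative added after the data had been seen. The counts of called tiles moved more. Tiles lower in XaXa numbered 20948 with at least 50 reads per tile, 36680 with at least 5 CpGs, 17408 over CpGs with 10 reads in each library and 48448 with 4 groups in the fit, where 36672, 64752, 27130 and 74980 tiles were tested. Tiles higher in XaXa numbered 65, 99, 52 and 81 under these settings. They numbered 58 with a minimum of 20 points, 98 at an adjusted p under 0.01 and 1 with a one-sided p, an alternative added after the data had been seen. With each library left out in turn, 0 to 84632 tiles were lower and 0 to 179 higher. The 0 came without XaXa 8, where the lowest adjusted p was 0.0621. All 12 named losses lost their call there, with differences of -77.1 to -57.1 points, and 28 of 184 alternative values of the named gains lost it. The depth of male iPSC 2, with a median of 34 reads per tile, limits which tiles can be compared. No paired analysis was possible because XaXa 7 and 8 and male iPSC 1, 2 and 4 share no replicate number.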
